A study of Mus musculus with 27 samples.

Results

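The annexins and S100 proteins described here are 10 genes of 55414 in the count table: Anxa1, Anxa2, Anxa3, Anxa5, S100a4, S100a6, S100a8, S100a9, S100a10 and S100a11. They were found by matching the Ensembl identifiers of the table to these gene symbols. All 10 were counted, and 9 passed the low-count filter of 10 reads on average over the 27 livers, the exception being S100a4. CCl4 raised S100a6, S100a11 and Anxa2 by about 8.67-fold to 10.8-fold and Anxa1, Anxa3 and Anxa5 by 3.08-fold to 3.43-fold on average over 4 treatment arms. S100a10 rose by 1.23-fold, and S100a8 and S100a9 did not pass the test. Among the CCl4 livers, those that also received 4MU or siHAS2-LNP had lower levels of 3 and 4 annexins than the 2 livers given CCl4 alone, but no member was called without 1 of those 2 mice, although Anxa2 and Anxa5 kept differences of similar size.

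Annexins are cytosolic proteins that bind the acidic phospholipids of membranes when calcium rises, and they take part in membrane repair, vesicle traffic and the clearance of dying cells. S100 proteins are small calcium-binding proteins with paired EF-hand motifs, which mostly work as dimers and expose a binding surface for a partner when calcium is bound. The families meet in known complexes: S100A10 binds the N-terminus of ANXA2 at the inner face of the plasma membrane, and S100A11 binds that of ANXA1. S100A8 and S100A9 form calprotectin, a major cytosolic protein of neutrophils that is also released as an inflammatory signal. In liver, healthy hepatocytes hold little ANXA2, while ductal, stellate and myeloid cells are known to hold more of it.

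The livers came from female Balb/c mice of 8 weeks, treated for 2 weeks. Control mice (n = 4) had olive oil in the peritoneum and PBS in the tail vein, and CCl4 mice (n = 2) had the hepatotoxin carbon tetrachloride in place of olive oil. The 4MU mice (n = 3) and the CCl4 + 4MU mice (n = 4) were gavaged with 4-methylumbelliferone, an inhibitor of hyaluronan synthesis, at 600 mg/kg. The siHAS2-LNP mice (n = 3) and the CCl4 + siHAS2-LNP mice (n = 4) were injected with lipid nanoparticles carrying siRNA to hyaluronan synthase 2, at 1 mg/kg first and 0.5 mg/kg later. The siLuc-LNP mice (n = 3) and the CCl4 + siLuc-LNP mice (n = 4) had the same particles with siRNA to luciferase, which mice lack. An arm is a pair of groups that differ in CCl4 alone, and 14 mice had CCl4 while 13 did not. The comparisons asked which of these genes move with the injury, and whether 4MU or the siRNA shifts that response.

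Totals were 18146198 to 29425937 counts per liver, apart from 7044386 in CCl4 + siHAS2-LNP mouse 4. Has2, the target of the siRNA, had 2 counts in CCl4 mouse 2, 1 count in CCl4 + siLuc-LNP mouse 4 and 0 in each of the other 25 livers, so its knockdown could not be read from these libraries. Hepatocyte transcripts were abundant in every library, with 72729 to 196469 CPM (counts per 1000000 counts, on TMM-scaled totals) for 6 hepatocyte markers, Alb among them. Libraries that stood apart were siLuc-LNP mouse 1 for neutrophil genes, CCl4 + 4MU mouse 4 for the ductal keratin Krt19 at 92.6 CPM, and CCl4 mouse 2 for the myofibroblast gene Acta2 at 41.7 CPM, where the median of the CCl4 livers was 4.39 CPM. Whole liver was measured, so more cells of a type and more RNA per cell cannot be told apart in any value below.

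The S100 members lie together on mouse chromosome 3 (GRCm39), where S100a4 (chr3:90511074-90513354), S100a6 (chr3:90520140-90535843), S100a8 (chr3:90567118-90578128) and S100a9 (chr3:90599931-90603071) form a first stretch. S100a11 (chr3:93414382-93435293) and S100a10 (chr3:93462213-93474510) form another. The annexins are spread, with Anxa1 at chr19:20350792-20368374, Anxa2 at chr9:69360542-69399077, Anxa3 at chr5:96940544-96993828 and Anxa5 at chr3:36503072-36530126. In the canonical transcripts of GENCODE each annexin has 13 exons and each S100 gene has 3.

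Anxa2, S100a11 and S100a6 rose the most, so the 60 bases before their canonical GENCODE starts are shown, none of which lies in an annotated exon. They were read on the + strand of GRCm39, and capitals mark the AP-1 motif TGANTCA.
Anxa2 (chr9:69360842-69360901): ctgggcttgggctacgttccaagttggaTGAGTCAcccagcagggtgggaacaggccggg
S100a11 (chr3:93427617-93427676): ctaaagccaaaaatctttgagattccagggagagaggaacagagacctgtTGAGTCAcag
S100a6 (chr3:90520080-90520139): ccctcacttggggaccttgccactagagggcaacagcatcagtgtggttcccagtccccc
Anxa2 and S100a11 each held 1 match in this stretch and S100a6 held 0. Over the 300-base RefSeq promoters (GRCm38.p6, 250 bases before to 50 after the start), which 8 of the 10 genes matched, Anxa3 and S100a10 being without an entry, AP-1 letters stood in 2 of 8 and in 7.81% of all 32851 promoters. S100a11 held a further match at -38 of its RefSeq start, inside the first GENCODE exon.

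The other motifs were searched on both strands of the same windows. The TATA box letters TATAAA stood in 5 of 8 (Anxa1, Anxa2, S100a4, S100a8 and S100a9) and in 13.6% of all promoters. The matches began at -32 in Anxa1, -31 in S100a4 and -30 in S100a8 of the RefSeq start. In S100a9 the match began at 0, on the start itself. In Anxa2 it began at -17 of a RefSeq start that lies 63 bases after the GENCODE start. The GC box GGGCGG stood in 3 (Anxa2, S100a9 and S100a11) against 35.7% of all, the C/EBP motif TTGCNNAA in 2 (Anxa1 and S100a9) against 10.8%, and the TEAD motif GGAATG in 1 (Anxa1) against 14.7%. The NF-kB letters, GGG and CC with any 5 bases between them, stood in 6 against 50.8%, overlapping a GC box in S100a11, and the ETS motif CCGGAAG in 0 against 8.86%. These are matches of letters and not shown to be sites that a factor occupies.

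S100a6, S100a11 and Anxa2 rose most with CCl4, and for each of them every one of the 14 CCl4 livers lay above every one of the 13 other livers. S100a6 (calcyclin), a small S100 protein of proliferating cells and fibroblasts, was at 1.68, 2.13, 3.59 and 2.21 CPM in the 4 control mice and at 32.9 and 30.1 CPM in the 2 CCl4 mice. It was at 12.99, 16.4, 21.9 and 11.1 CPM in CCl4 + 4MU mice, at 34.6, 20.2, 67.0 and 18.8 CPM in CCl4 + siLuc-LNP mice, and at 62.5, 20.02, 13.2 and 8.01 CPM in CCl4 + siHAS2-LNP mice. The spread inside the CCl4 groups was wide, since 1 CCl4 + siHAS2-LNP liver and 2 CCl4 + siLuc-LNP livers passed both CCl4 mice while the others lay under them. In the livers without CCl4 S100a6 ranged from 1.41 to 3.59 CPM. The mean CCl4 effect over the 4 arms was 3.43 ± 0.28 (log2 fold change ± SE, edgeR adjusted p = 2.97e-10).

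S100a11 (calgizzarin), the partner of ANXA1, was at 5.04, 4.84, 6.70 and 4.66 CPM in control mice and at 25.9 and 74.2 CPM in CCl4 mice, which differed widely from each other. It was at 26.3, 30.9, 34.1 and 33.0 CPM in CCl4 + 4MU mice, at 59.8, 39.5, 94.6 and 55.4 CPM in CCl4 + siLuc-LNP mice, and at 57.4, 29.2, 40.2 and 21.5 CPM in CCl4 + siHAS2-LNP mice. The lowest of these, 21.5 CPM, was above the highest liver without CCl4, which had 7.84 CPM. S100a11 rose by 3.12 ± 0.18 on the log2 scale over the arms (adjusted p = 3.42e-13).

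Anxa2, the annexin that links actin to membranes and serves plasminogen activation at the cell surface, was at 11.2, 11.2, 18.3 and 13.002 CPM in control mice and at 203 and 217 CPM in CCl4 mice. It was at 62.6, 74.2, 106 and 76.9 CPM in CCl4 + 4MU mice, at 193, 103, 212 and 194 CPM in CCl4 + siLuc-LNP mice, and at 131, 101, 71.3 and 71.0 CPM in CCl4 + siHAS2-LNP mice. The CCl4 + 4MU livers lay under both CCl4 mice, with no overlap, as did the CCl4 + siHAS2-LNP livers, while 1 of the 4 CCl4 + siLuc-LNP livers lay above the lower CCl4 mouse. Anxa2 rose by 3.18 ± 0.14 on the log2 scale over the arms (adjusted p = 7.12e-15).

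**Figure D1:**
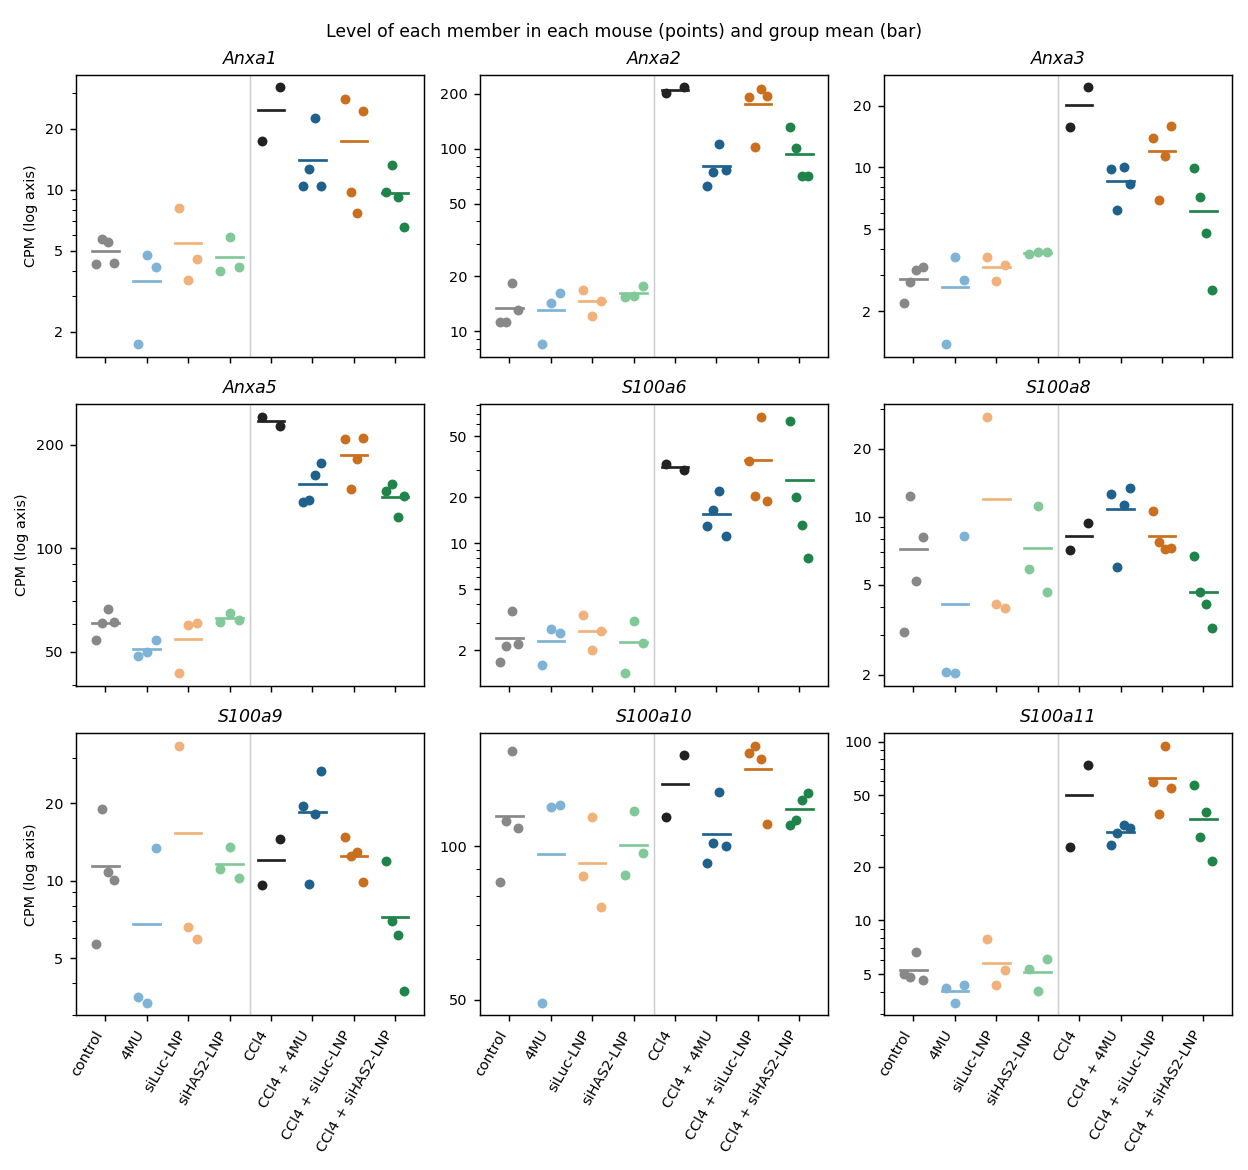
Level in CPM, on log axes, of the 9 members past the low-count filter in each of the 27 livers (points, by group) with the group mean (bar). Livers without CCl4 are on the left of each panel and livers with CCl4 on the right. For Anxa2, Anxa5, S100a6 and S100a11 every CCl4 liver lies above every other liver, while S100a8, S100a9 and S100a10 overlap.

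Anxa5, Anxa1 and Anxa3 rose by less, and of these Anxa5 alone separated all 14 CCl4 livers from all 13 others. Anxa5, which binds phosphatidylserine on dying cells and is used as their stain, was at 54.0, 60.6, 66.6 and 61.0 CPM in control mice and at 241 and 226 CPM in CCl4 mice. Its values were 136, 138, 163 and 176 CPM in CCl4 + 4MU mice, 207, 149, 181 and 209 CPM in CCl4 + siLuc-LNP mice, and 146, 153, 123 and 141 CPM in CCl4 + siHAS2-LNP mice. All 12 CCl4 livers with a further treatment lay under both CCl4 mice. The mean CCl4 effect on Anxa5 was 1.62 ± 0.074 (adjusted p = 8.02e-15), the smallest standard error among the members. In 20.4% of its canonical bases Anxa5 shares exons with a gene on the opposite strand that had 3 to 48 counts, against 756 or more for Anxa5.

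Anxa1 (lipocortin 1), a mediator of the resolution of inflammation that acts through formyl peptide receptors, was at 4.33, 5.73, 5.51 and 4.37 CPM in control mice and at 17.4 and 31.99 CPM in CCl4 mice. It was at 10.4, 12.7, 22.6 and 10.5 CPM in CCl4 + 4MU mice, at 28.01, 9.72, 7.68 and 24.5 CPM in CCl4 + siLuc-LNP mice, and at 9.79, 13.3, 9.19 and 6.54 CPM in CCl4 + siHAS2-LNP mice. The CCl4 + siLuc-LNP livers fell into a higher and a lower pair, and 12 of the 14 CCl4 livers lay above every liver without CCl4, of which siLuc-LNP mouse 1 was highest at 8.18 CPM. Over the arms Anxa1 rose by 1.76 ± 0.21 (adjusted p = 2.11e-07).

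Anxa3, known from neutrophil granules and from progenitor and ductal cells, was the least abundant annexin among the members per kilobase of transcript. It was at 2.19, 2.77, 3.16 and 3.27 CPM in control mice and at 15.7 and 24.5 CPM in CCl4 mice. CCl4 + 4MU mice had 9.85, 6.23, 10.02 and 8.33 CPM, CCl4 + siLuc-LNP mice had 13.9, 6.91, 11.3 and 15.8 CPM, and CCl4 + siHAS2-LNP mice had 9.98, 7.18, 4.82 and 2.54 CPM. The last value came from the shallowest library, with 19 counts of Anxa3, and lay inside the range of the livers without CCl4. The other 13 CCl4 livers lay above every liver without CCl4. Over the arms Anxa3 rose by 1.78 ± 0.17 (adjusted p = 6.83e-09).

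S100a10 (p11), the calcium-insensitive partner of ANXA2, moved little. It was at 85.0, 112, 153 and 108 CPM in control mice, at 114 and 151 CPM in CCl4 mice, at 92.5, 102, 128 and 100.1 CPM in CCl4 + 4MU mice, at 152, 157, 148 and 110.5 CPM in CCl4 + siLuc-LNP mice and at 109.8, 113, 123 and 127 CPM in CCl4 + siHAS2-LNP mice. These ranges overlap those of the livers without CCl4, 49.4 to 153 CPM. Over the arms S100a10 rose by 0.30 ± 0.12 (adjusted p = 0.0428, and 0.0581 with limma-voom), and the call was lost when any of 15 of the 27 mice was left out.

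The ratio of S100a10 to Anxa2 counts was lower in every CCl4 group. It was 7.59 to 10.05 in the 4 control livers and 0.561 to 0.695 in the 2 CCl4 livers. It was 1.21 to 1.48 with CCl4 + 4MU, 0.569 to 1.53 with CCl4 + siLuc-LNP and 0.838 to 1.79 with CCl4 + siHAS2-LNP, against 5.17 to 9.44 with siLuc-LNP, 5.50 to 7.498 with siHAS2-LNP and 5.81 to 8.39 with 4MU. No CCl4 liver overlapped a liver without CCl4 in this ratio. Per kilobase of canonical transcript, S100a10 stood at 33.5 ± 8.31 CPM and Anxa2 at 9.27 ± 2.32 CPM in control mice (mean ± SD, n = 4), while in CCl4 mice S100a10 stood at 38.7 ± 7.63 CPM and Anxa2 at 145 ± 6.94 CPM (n = 2). The order of the pair was thus reversed between the groups on the per-length scale.

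S100a8 and S100a9, the calprotectin subunits, did not follow the other members. S100a8 was at 3.10, 12.4, 5.21 and 8.10 CPM in control mice, at 7.11 and 9.34 CPM in CCl4 mice and at 27.7, 4.102 and 3.96 CPM in siLuc-LNP mice, where mouse 1 stood far above the others. S100a9 was at 5.65, 19.0, 10.8 and 10.1 CPM in control mice, at 9.64 and 14.5 CPM in CCl4 mice and at 33.4, 6.61 and 5.93 CPM in siLuc-LNP mice, with the same mouse highest. The highest liver for both genes was thus one without CCl4. The mean CCl4 effect was 0.12 ± 0.29 for S100a8 (adjusted p = 0.752) and 0.15 ± 0.27 for S100a9 (adjusted p = 0.652).

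The calprotectin pair kept to each other from liver to liver. S100a9 counts were 1.17 to 2.19 times S100a8 counts over the 27 livers, with a median of 1.60, and no group stood apart in this ratio. Neutrophil markers moved with the pair: the summed level of 10 neutrophil markers was 45.6 CPM in siLuc-LNP mouse 1 against 9.06 and 9.98 CPM in the other siLuc-LNP mice, with Ngp at 13.8 CPM and Ltf at 13.2 CPM in that mouse. It was 3.48 and 5.84 CPM in the 4MU mice with the lowest S100a8 and 16.1 CPM in the third. The defining markers were low, with Ly6g at 0 to 0.973 CPM, Mpo at 0.359 to 5.49 CPM and Elane at 0 to 3.96 CPM over all livers. The part of neutrophil number in the levels of S100a8 and S100a9 was not tested.

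**Figure D2:**
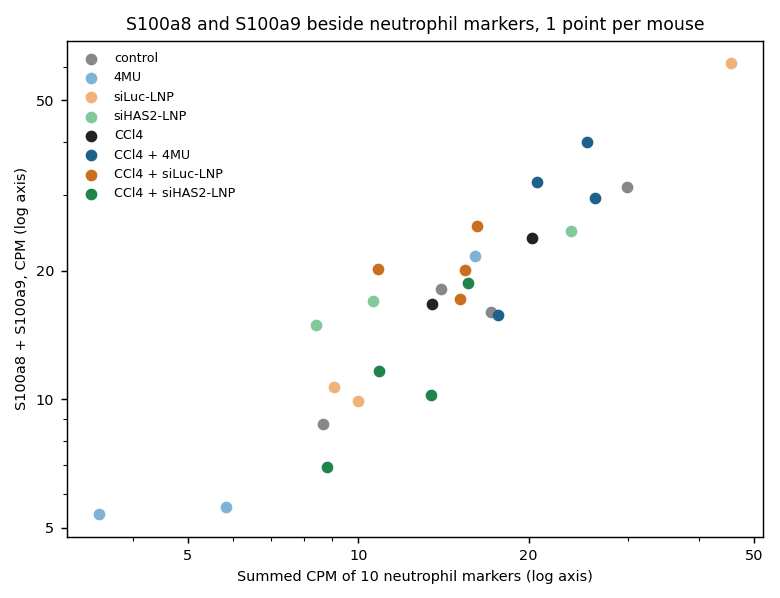
Summed level of S100a8 and S100a9 against the summed level of 10 neutrophil markers, both in CPM on log axes, with 1 point per liver coloured by group. The siLuc-LNP liver at 45.6 CPM of neutrophil markers is at the top right and 2 of the 3 4MU livers are at the bottom left.

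S100a4 (fibroblast-specific protein 1), a marker of fibroblasts and of a subset of macrophages, was near the limit of counting. It had 3 and 10 counts in the CCl4 mice, 3, 1, 8 and 1 in CCl4 + 4MU mice, 3, 1, 5 and 1 in CCl4 + siLuc-LNP mice, and 0, 3, 1 and 0 in CCl4 + siHAS2-LNP mice. Among livers without CCl4 it had 1 count in control mouse 2, 1 in siHAS2-LNP mouse 3, 2 in siLuc-LNP mouse 3 and 0 in the rest. It was left out of the main test by the low-count filter. Of its 503 canonical bases, 302 (60.04%) are shared with another annotated gene on the same strand, which had 0 counts in every liver, so reads that fall there may have been dropped as ambiguous and its level is uncertain. With no low-count filter its mean CCl4 effect was 2.86 ± 0.72 (edgeR adjusted p = 7.84e-04). Of the arms in that fit, only CCl4 against control passed, at 3.92 ± 1.31 (edgeR adjusted p = 0.0247). The 4MU arm was at 4.58 ± 1.63 (edgeR adjusted p = 0.0509). The siLuc-LNP arm was at 1.60 ± 1.25 and the siHAS2-LNP arm at 1.33 ± 1.48 (edgeR adjusted p = 0.555 and 0.709).

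Counted over arms, 7 of the 9 tested members rose in the mean CCl4 effect, where 26.3% of the 14114 genes tested did, and the median of the members was 1.76 on the log2 scale against -0.02 over all genes. In CCl4 against control 6 rose, where 18% of genes did. They were Anxa1 at 2.31 ± 0.43, Anxa2 at 3.97 ± 0.28, Anxa3 at 2.81 ± 0.35, Anxa5 at 1.95 ± 0.15, S100a6 at 3.70 ± 0.55 and S100a11 at 3.23 ± 0.35 (log2 fold change ± SE). In CCl4 + siLuc-LNP against siLuc-LNP the same 6 symbols passed, where 13% of genes did, with Anxa2 at 3.59 ± 0.29 and S100a6 at 3.70 ± 0.57. S100a8 at -0.53 ± 0.55 and S100a9 at -0.29 ± 0.51 did not pass there, and without siLuc-LNP mouse 1 they were at 1.03 and 1.00 (adjusted p = 0.186 and 0.183). The members were chosen with such results known, so their share is given as a description.

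In CCl4 + 4MU against 4MU 7 members rose, where 13.2% of genes did. Anxa2 rose by 2.62 ± 0.28, S100a11 by 2.96 ± 0.36 and S100a6 by 2.75 ± 0.55 on the log2 scale. The seventh was S100a9 at 1.46 ± 0.54 (adjusted p = 0.0498), with S100a8 at 1.41 ± 0.58 just outside (adjusted p = 0.0803). S100a8 was at 12.6, 5.98, 11.3 and 13.5 CPM in the CCl4 + 4MU mice and at 2.05, 2.03 and 8.26 CPM in the 4MU mice, and S100a9 was at 19.5, 9.72, 18.2 and 26.6 CPM against 3.54, 3.36 and 13.4 CPM. The ranges overlapped in both, and leaving out any of 5 of the 7 mice ended the S100a9 call. The summed neutrophil markers were 17.7 to 26.2 CPM in the CCl4 + 4MU mice and 3.48 to 16.1 CPM in the 4MU mice, and 2 of the 8 tested neutrophil markers rose there; their part in the S100a9 call was not tested.

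In CCl4 + siHAS2-LNP against siHAS2-LNP 4 members rose, where 7.74% of genes did: Anxa2 at 2.53 ± 0.28, Anxa5 at 1.17 ± 0.14, S100a6 at 3.56 ± 0.57 and S100a11 at 2.85 ± 0.35. Anxa1 at 1.07 ± 0.42 (adjusted p = 0.0928) and Anxa3 at 0.71 ± 0.34 (adjusted p = 0.171) missed the threshold in this arm. Against the siLuc-LNP arm that difference was not shown. The siHAS2 by CCl4 interaction there was -0.62 ± 0.58 for Anxa1 (edgeR adjusted p = 0.734) and -1.16 ± 0.47 for Anxa3 (edgeR adjusted p = 0.339). In the untreated arm Anxa1 rose by 2.31 ± 0.43 and Anxa3 by 2.81 ± 0.35, and the difference from that arm was not tested. Without the shallow CCl4 + siHAS2-LNP mouse 4 Anxa3 was at 0.94 (adjusted p = 0.0576) and Anxa1 at 1.21 (adjusted p = 0.0780). S100a8 and S100a9 had negative values in the siHAS2-LNP arm, -0.61 ± 0.57 and -0.65 ± 0.52, and neither passed.

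**Figure D3:**
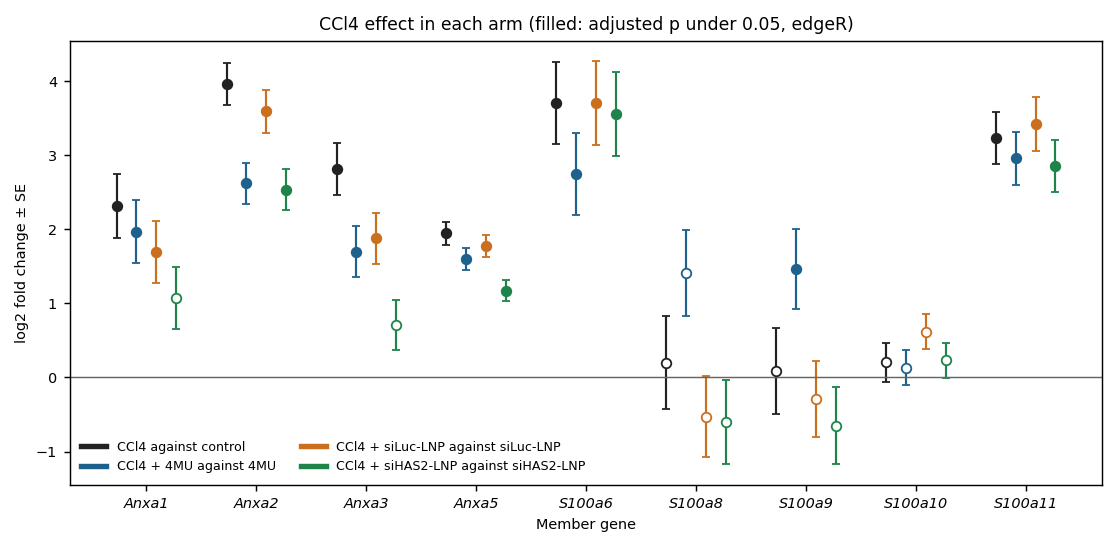
CCl4 effect on each of the 9 tested members as log2 fold change ± SE (edgeR), in the untreated, 4MU, siLuc-LNP and siHAS2-LNP arms, with filled points where the adjusted p was under 0.05. Anxa2, Anxa5, S100a6 and S100a11 are filled in each of the 4 arms, Anxa1 and Anxa3 in 3, and S100a9 in the 4MU arm.

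Against the 2 livers with CCl4 alone, annexins were lower in the CCl4 livers with 4MU or siHAS2-LNP, and none of the S100 members passed the test. With 4MU 3 members fell, where 10% of genes did: Anxa2 by 1.39 ± 0.27, Anxa3 by 1.22 ± 0.34 and Anxa5 by 0.61 ± 0.16 on the log2 scale (edgeR adjusted p = 0.00189, 0.0163 and 0.00989). With siHAS2-LNP 4 members fell, where 7.33% of genes did: Anxa1 by 1.33 ± 0.43, Anxa2 by 1.16 ± 0.28, Anxa3 by 1.67 ± 0.35 and Anxa5 by 0.73 ± 0.15 (adjusted p = 0.0381, 0.00782, 0.00356 and 0.00409). S100a6 was at -1.01 ± 0.52 with 4MU and -0.26 ± 0.53 with siHAS2-LNP, and S100a11 was at -0.69 ± 0.34 and -0.42 ± 0.34, none of them called. When each of the 6 mice was left out in turn, S100a11 with 4MU ran from -1.27 to 0.24 and was called in 1 fit. With siLuc-LNP 0 of 9 members were called, where 0.248% of genes were, and at an unadjusted p under 0.05 Anxa3 (-0.74 ± 0.35) and Anxa5 (-0.32 ± 0.16) were below CCl4 alone. DESeq2 and limma-voom called 0 there too. For the unadjusted threshold the share of all genes is not given here.

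These comparisons share the same 2 CCl4 mice. Without CCl4 mouse 2, which had the higher Anxa1, Anxa3 and S100a11, 0 members were called in either, with the lone mouse left assumed to vary like the other groups. Anxa2 was then at -1.37 with 4MU (adjusted p = 0.0505) and -1.14 with siHAS2-LNP (adjusted p = 0.104), close to the values with both mice. Anxa5 was at -0.68 and -0.80, slightly further from 0 than with both, while Anxa3 was at -0.90 and -1.34, and Anxa1 with siHAS2-LNP went from -1.33 to -0.86. Leaving out any of 4 of the 6 mice ended the Anxa1 call with siHAS2-LNP, CCl4 + siHAS2-LNP mouse 4 among them (-1.21, edgeR adjusted p = 0.0870). The Anxa5 call with 4MU ended when any of 2 of the 6 mice was left out. Among all genes tested, 2580 were called with 4MU and 2038 with siHAS2-LNP when both CCl4 mice were kept. Far fewer were called in either comparison without CCl4 mouse 2, which leaves a lone mouse with CCl4 alone.

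Cell markers moved in the same comparisons. With siHAS2-LNP against CCl4 alone 4 of 5 Kupffer cell markers were lower (median -1.72 on the log2 scale), as were 3 of 4 mesothelial markers (median -1.81), 3 of 9 stellate cell and myofibroblast markers (median -0.76), 2 of 6 endothelial, 1 of 7 cholangiocyte and 1 of 10 monocyte and macrophage markers. Summed Kupffer cell markers were 242 to 268 CPM with CCl4 alone. They were 89.2 to 124 CPM with CCl4 + siHAS2-LNP and 112 to 195 CPM with CCl4 + siLuc-LNP. With 4MU 3 of 6 hepatocyte markers were higher (median 0.64) and 1 of 10 monocyte and macrophage markers was lower. CCl4 mouse 2 had the lowest hepatocyte sum of all livers, 72729 CPM against 127688 CPM in CCl4 mouse 1, and the highest mesothelial sum, 36.9 CPM against 16.4 CPM. Without it 2 Kupffer cell markers were still lower with siHAS2-LNP, and no other marker of these lists was called in either comparison. The part of these cells in the lower annexin levels was not tested.

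**Figure D4:**
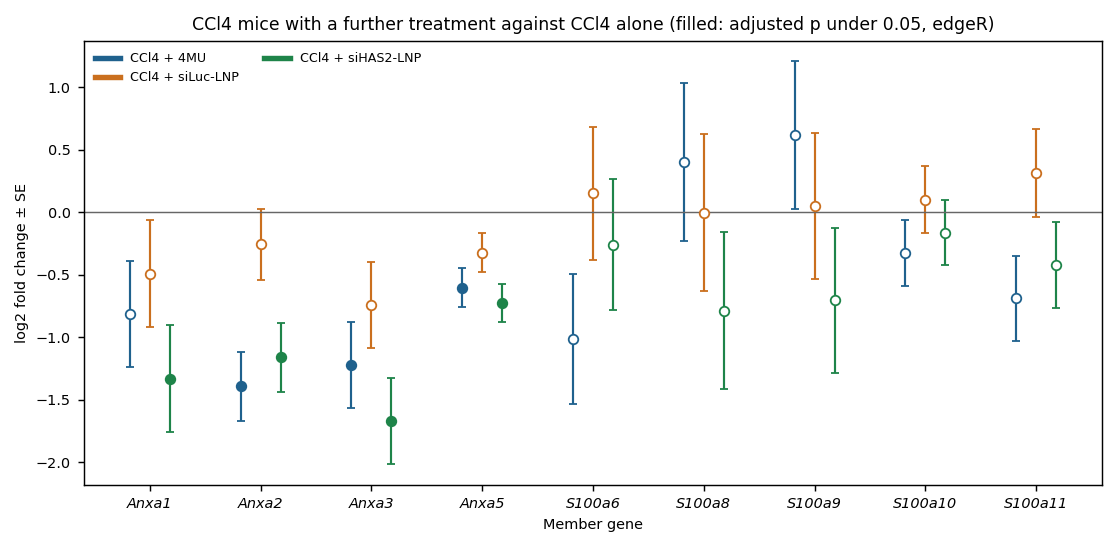
Difference from mice with CCl4 alone, in the groups that had 4MU, siLuc-LNP or siHAS2-LNP beside it, for each tested member, as log2 fold change ± SE (edgeR), with filled points where the adjusted p was under 0.05. The 7 filled points are annexins below 0, and no siLuc-LNP point is filled.

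The direct comparison of CCl4 + siHAS2-LNP with its nanoparticle control CCl4 + siLuc-LNP, which does not use those 2 mice, gave 0 called members, where 1.09% of genes were called. The values were negative for all 9 tested members, from -0.93 to -0.26 on the log2 scale. Anxa2 came nearest, at -0.90 ± 0.23 (adjusted p = 0.0566), and it passed under DESeq2 (adjusted p = 0.0121), which called 2 members where limma-voom called 0. It also passed without CCl4 + siHAS2-LNP mouse 1 (-1.11, adjusted p = 0.0283) and without CCl4 + siLuc-LNP mouse 2 (-1.10, adjusted p = 0.0320). At an unadjusted p under 0.05 there were 5 members: Anxa1, Anxa2, Anxa3, Anxa5 and S100a11. The share of all genes at that threshold is not given here, so this count is description only. The numbers of all genes that each method called in this comparison are in the last paragraph. Between CCl4 + 4MU and CCl4 + siHAS2-LNP livers 0 members were called, where 1.22% of genes were. DESeq2 called 0 and limma-voom called 1, and S100a8 (1.19 ± 0.53) and S100a9 (1.33 ± 0.49), higher with 4MU, were those at an unadjusted p under 0.05. For those methods and that threshold the share of all genes is not given here, so these results are description only.

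The interaction of 4MU with CCl4, which asks whether the CCl4 effect differed between 4MU mice and untreated mice, was called for Anxa2 alone among the members, at -1.35 ± 0.38 (adjusted p = 0.0392), where 2.95% of genes were lower. Leaving out any of 10 of the 13 mice ended that call. In the interactions of siLuc-LNP (against untreated mice) and of siHAS2 (against siLuc-LNP mice) with CCl4 0 members were called, where 0.00709% and 0.0354% of genes were. At an unadjusted p under 0.05 there were 0 members for siLuc-LNP and 3 for siHAS2, which were Anxa2, Anxa3 and Anxa5. The share of all genes at that threshold is not given here, so these counts are description only. DESeq2 and limma-voom called 0 members in both.

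Without CCl4 the treatments moved no member past the test. With 4MU or siLuc-LNP set against control, and siHAS2-LNP set against siLuc-LNP, 0 members were called and 0 had an unadjusted p under 0.05, where 0.00709%, 0.213% and 0.0425% of genes were called. DESeq2 and limma-voom also called 0. The values of the 9 members ran from -0.81 to -0.05 with 4MU, from -0.31 to 0.73 with siLuc-LNP and from -0.71 to 0.24 with siHAS2-LNP. S100a8 was the lowest with 4MU and with siHAS2-LNP and the highest with siLuc-LNP. The high siLuc-LNP mouse 1 enters both the siLuc-LNP and the siHAS2-LNP comparison. Mean S100a8 was 7.25 CPM in siHAS2-LNP mice and 7.20 CPM in control mice.

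Ordered by group mean, the 4 groups without CCl4 came below the 4 CCl4 groups for Anxa1, Anxa2, Anxa3, Anxa5, S100a6 and S100a11. For Anxa2 the step between siHAS2-LNP mice (16.2 ± 1.24 CPM, mean ± SD) and CCl4 + 4MU mice (79.9 ± 18.4 CPM) was the one place where neighbours in the order did not overlap. The same held for S100a6 between siLuc-LNP (2.68 ± 0.691 CPM) and CCl4 + 4MU mice (15.6 ± 4.74 CPM), and for S100a11 between siLuc-LNP (5.81 ± 1.82 CPM) and CCl4 + 4MU mice (31.1 ± 3.46 CPM). Anxa5 had such a gap between siHAS2-LNP (62.5 ± 1.94 CPM) and CCl4 + siHAS2-LNP mice (141 ± 12.8 CPM), and again between CCl4 + siLuc-LNP (186 ± 28.2 CPM) and CCl4 mice (233 ± 10.8 CPM). Anxa3 had one among the groups without CCl4, between siLuc-LNP (3.26 ± 0.440 CPM) and siHAS2-LNP mice (3.85 ± 0.0473 CPM). For Anxa1 each neighbour in the order overlapped the next, from 4MU mice at 3.57 ± 1.61 CPM to CCl4 mice at 24.7 ± 10.3 CPM. CCl4 mice had the highest mean of the 4 annexins, while CCl4 + siLuc-LNP mice had the highest mean of S100a6, S100a10 and S100a11.

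None of the other family genes that were tested rose as much as the 6 leading members. Of 8 other annexins 6 were tested, and 4 rose in the mean CCl4 effect. Anxa13, an annexin of epithelia, rose by 1.29 ± 0.44 and Anxa9 by 1.18 ± 0.18, both being low in these livers, and Anxa4, an annexin of epithelia, rose by 0.55 ± 0.077 and Anxa6, one of the abundant liver annexins, by 0.28 ± 0.085. Anxa13 was at 21.96 CPM in CCl4 + 4MU mouse 4, the liver with high Krt19, at 0.603 to 1.86 CPM in the other 13 CCl4 livers and at 0.254 to 1.42 CPM in the livers without CCl4, so the last ranges overlap. Without that liver its mean CCl4 effect was 0.67 ± 0.25 (edgeR adjusted p = 0.0248), and without CCl4 mouse 1 it was 1.06 (adjusted p = 0.0755). Anxa7 at 0.04 ± 0.069 and Anxa11 at 0.10 ± 0.073 did not pass. Of 11 other S100 genes 3 were tested and none rose. S100a1, a calcium sensor of muscle and other cells, fell by 0.66 ± 0.12, S100a13, which takes part in the release of proteins without a signal peptide, fell by 0.42 ± 0.13, and S100a16 was at -0.12 ± 0.089.

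**Figure D5:**
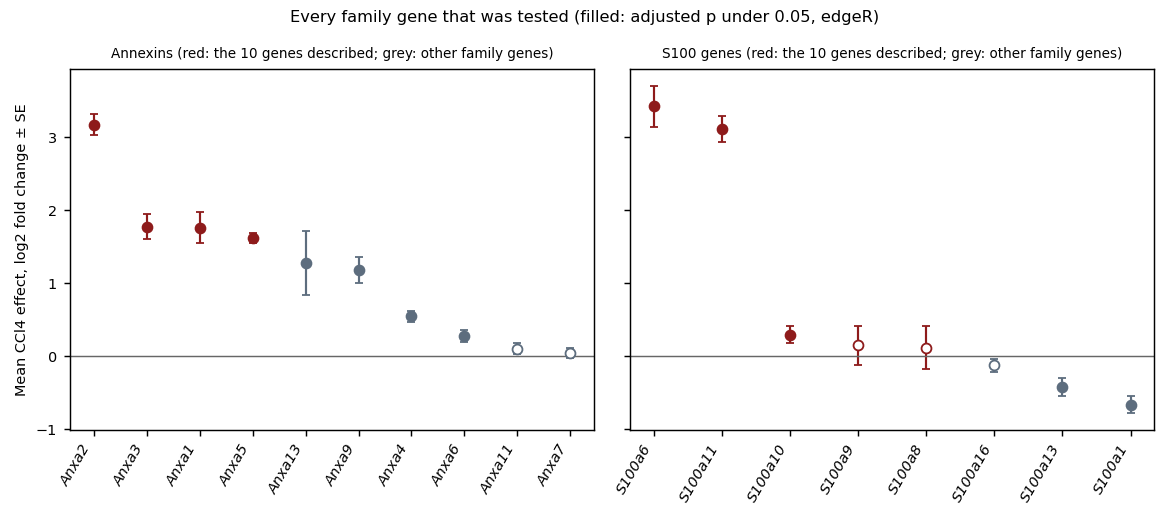
Mean CCl4 effect over the 4 arms, as log2 fold change ± SE (edgeR), for every annexin (left) and S100 gene (right) that was tested, with filled points where the adjusted p was under 0.05. The members described here are red, and other family genes are grey. The highest points are S100a6 at 3.43, Anxa2 at 3.18 and S100a11 at 3.12, and the lowest are S100a13 and S100a1.

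Of 14 receptors and partners of these proteins 13 were tested in the mean CCl4 effect, of which 7 rose and 4 fell, with a median of 0.42. The receptors of ANXA1 went opposite to Anxa1: Fpr1 fell by 0.95 ± 0.21 and Fpr2 by 0.65 ± 0.17. Ahnak, the giant scaffold bound by the ANXA2 and S100A10 complex, rose by 1.22 ± 0.11 and Myh9, the non-muscle myosin bound by S100A4, by 1.18 ± 0.14. Dysf, the membrane repair protein that binds annexins, rose by 0.54 ± 0.12. Of the receptors of S100A8 and S100A9, Tlr4 rose by 0.58 ± 0.18, Cd36 by 0.63 ± 0.18, Bsg by 0.42 ± 0.079 and Mcam by 1.02 ± 0.16. Ager, the receptor RAGE, was below the filter at 0.0386 to 0.707 CPM. The S100A6 partners Cacybp and Sugt1 fell by 0.26 ± 0.091 and 0.21 ± 0.066. The call of Tlr4 was lost without CCl4 mouse 2 (0.42, edgeR adjusted p = 0.0734) and that of Cacybp without CCl4 mouse 1 (-0.23, adjusted p = 0.0620).

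Marker lists of some cells known to hold these proteins rose with CCl4, while 4 of 5 Kupffer cell markers fell and 1 of 8 neutrophil markers rose. Of 7 tested cholangiocyte markers 6 rose, with Krt19 at 1.99 ± 0.58, Krt7 at 1.58 ± 0.27 and Epcam at 1.16 ± 0.37. CCl4 + 4MU mouse 4 carried much of this, with Krt19 at 92.6 CPM and Epcam at 19.6 CPM against 0.645 to 6.14 CPM and 0.849 to 2.39 CPM in the other 13 CCl4 livers, ranges that overlap those without CCl4. Without that liver 6 of 7 still rose, but Krt19 was at 0.99 ± 0.27 and Epcam at 0.64 ± 0.19, and Krt19 in the 4MU arm went from 3.73 to -0.33. The summed level of the 8 cholangiocyte markers was 31.0 to 78.7 CPM in livers without CCl4 and 112 to 716 CPM in CCl4 livers. Spp1, which macrophages also make, held a median of 92.0% of that sum in CCl4 livers and 84.5% in the others, and rose by 2.43 ± 0.18. Without Spp1 the sum was 4.97 to 13.3 CPM and 9.38 to 139 CPM, which overlap.

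The summed level of 10 stellate cell and myofibroblast markers was 235 to 444 CPM and 354 to 1163 CPM, with 7 of 9 rising and 1 falling, Col1a1 at 4.06 ± 0.29, Acta2 at 2.67 ± 0.45 and Pdgfrb at 0.50 ± 0.11. That of 10 monocyte and macrophage markers was 70.9 to 302 CPM and 148 to 576 CPM, with 8 of 10 rising, Ly6c2 at 1.10 ± 0.27, Ccr2 at 1.24 ± 0.19 and Lyz2 at 1.00 ± 0.17. In the siHAS2-LNP arm this sum was lower with CCl4, at 148 to 237 CPM against 247 to 265 CPM without it. The median of the sum was higher with CCl4 in each of the other arms. All 4 mesothelial markers rose, with Msln at 1.14 ± 0.28, Upk3b at 1.05 ± 0.31 and Wt1 at 2.46 ± 0.29, from 0.944 to 12.97 CPM in sum without CCl4 and from 4.19 to 36.9 CPM with it. The part of these cells in the rise of the annexins and S100 genes was not tested.

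Other lists moved less or fell. Of 5 Kupffer cell markers 4 fell, with Clec4f at -1.07 ± 0.15, Timd4 at -1.42 ± 0.15 and Vsig4 at -0.51 ± 0.18. Of 8 tested neutrophil markers 1 rose (Csf3r at 0.59 ± 0.16), while Mpo was at -0.45 ± 0.37 and Elane at -0.22 ± 0.35. Of 6 endothelial markers 3 rose and 1 fell, with Stab2 at -0.59 ± 0.094, Pecam1 at 0.33 ± 0.13 and Cdh5 at -0.13 ± 0.16. Of 7 tested T, B and NK cell markers 2 fell, with Cd79a at -0.59 ± 0.24, Cd3e at -0.65 ± 0.29 and Nkg7 at -0.50 ± 0.23, the last 2 not called. Of 6 hepatocyte markers 1 rose (Cps1 at 0.79 ± 0.14) and 2 fell, Alb by 0.31 ± 0.11 and Ttr by 0.39 ± 0.14, while Apoa1 was at -0.10 ± 0.16. When each mouse was left out, Vsig4 was called in 24 of 27 fits and Pecam1 and Cd79a in 17, and Alb and Ttr were not called without CCl4 mouse 2.

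The genes with the most alike profiles were found by the root mean square difference of centred log2 CPM over the 27 livers. Members were often nearest to each other. S100a8 and S100a9 were 0.227 apart, with Ltf, the lactoferrin of neutrophil granules, next for both at 0.560 and 0.587. S100a6 was nearest to Anxa2 (0.454), S100a11 (0.519) and the tetraspanin Cd63 (0.530). Anxa2 was nearest to Cd63 (0.403), S100a11 (0.410) and Tacc3 (0.445), and S100a11 to the galectin Lgals1 (0.394), Anxa2 (0.410) and Mfge8 (0.416).

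The other annexins were nearest to genes outside both families. Anxa1 was nearest to Fstl1 (0.363), Plek (0.386) and the intermediate filament Vim (0.432), and Anxa3 to Vim (0.336), Pkm (0.360) and Slc25a24 (0.401). Anxa5 was nearest to Akr1b1 (0.254), Mpp1 (0.264) and Cdkn2c (0.269). S100a10, whose own SD over the livers was 0.353, was nearest to Nhp2 (0.263), Txndc12 (0.268) and Rpl15 (0.270), genes of ribosome making and of protein folding. The third gene nearest to S100a8 was the neutrophil gene Retnlg (0.568), and that nearest to S100a9 was Rnf113a1 (0.588).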

How the data were processed

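Per the labels and the study's methods, poly(A) RNA of whole liver was sequenced in paired-end mode, trimmed with Trimmomatic 0.39, aligned to GRCm39 with HISAT2 (version not given in the sources used here) and counted with featureCounts, in which multi-mapping reads were not counted. The strand setting is not given in the sources used here. The authors deposited raw counts per Ensembl gene, which were used as deposited. The labels number the libraries within groups, and each was taken as 1 mouse. If mice were shared, the p-values would measure technical spread only. Symbols, exons and lengths came from GENCODE vM39.

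The 14114 genes that averaged 10 counts or more were fitted with edgeR 4.0.16 (R 4.3.3), TMM scaling, 8 groups in 1 quasi-likelihood model and Benjamini-Hochberg adjustment over all of them, with a threshold of 0.05. The standard error is the log2 fold change divided by the root of F. The fit was tested on simulated data. Alternatives used DESeq2 1.42.0, limma 3.58.1, other scaling, filtering and samples. The genes named were the 10 members, other family genes and partners past the threshold in the mean CCl4 effect, the first 3 genes of each marker list, and the 3 nearest genes of each member. Further genes (Csf3r, Cps1, Spp1, and those given as not passing) were named after their values were seen. The marker and family values without single livers, and the cholangiocyte sum without Spp1, were alternatives chosen after seeing the data. The members and lists were chosen with earlier results of these data known. A library's precision is set by its total, and 3 counts correspond to 0.102 to 0.426 CPM.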

Additional observations from a re-analysis of the deposited data

Results flagged for a closer look

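Within groups of 4 livers, S100a8 in 1 group stood apart from the rest by Dixon's test at the 95% level, among 40 groups of values examined, where chance flags about 1 in 20. S100a8 in CCl4 + siLuc-LNP mouse 1 was at 10.6 CPM, with 7.20 to 7.75 CPM in the other 3 livers. S100a4 in control mouse 2 was at 0.0590 CPM, which is 1 count, with 0 in the other 3. With the others all at 0 any single count passes this test, so nothing is read from that value.

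The 4MU by CCl4 interaction of Anxa2 differed between arms by the test of the difference itself, at -1.35 on the log2 scale. The CCl4 effect on Anxa2 was 3.97 in untreated mice and 2.62 in 4MU mice. The 2 CCl4 mice enter this difference, and without CCl4 mouse 2 it was -1.32 (edgeR adjusted p = 0.176).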

How the results depend on the processing

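Of the 16 counts of members called, those of the mean CCl4 effect and of the 4 within-arm CCl4 effects stayed within 1.5 times the main count under each alternative. The count for CCl4 + 4MU against CCl4 went from 3 to 5 with no low-count filter and ran from 0 to 3 when each mouse was left out. The count for CCl4 + siHAS2-LNP against CCl4 ran from 0 to 4. That for CCl4 + siHAS2-LNP against CCl4 + siLuc-LNP went from 0 to 2 with DESeq2 and 4 with no low-count filter, and ran from 0 to 2. That for CCl4 + 4MU against CCl4 + siHAS2-LNP went from 0 to 1 with limma-voom and 2 with no low-count filter. The 4MU by CCl4 interaction went from 1 to 2 and the siHAS2 by CCl4 interaction from 0 to 1 with no low-count filter, and the first ran from 0 to 1. For most of these alternatives the number of all genes called is not given, so the counts of members are description only. The cause of the changes was not tested.

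Values that changed sign belonged to members uncalled in the main fit. With limma-voom S100a8 and S100a9 in the siLuc-LNP arm were at 0.83 and 0.84. Leaving out single mice gave -0.95 to 1.03 and -0.68 to 1.00 there, siLuc-LNP mouse 1 giving the upper ends. It gave -0.049 to 0.60 for S100a8 and -0.21 to 0.46 for S100a9 in CCl4 against control, and -0.18 to 0.32 for S100a10 in the 4MU arm. Against CCl4 it gave -1.27 to 0.24 for S100a11 with 4MU, and with siHAS2-LNP -1.17 to 0.012 for S100a6, -0.36 to 0.024 for S100a10 and -0.998 to 0.50 for S100a11. Of the single-member values 923 kept direction and call, 49 lost the call and 21 gained it.

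Libraries with the same number did not vary together (median r of -0.017 over 83 pairs, 17 of them over 0.1), so the number is no pairing. With the replicate block the counts were 7, 6, 6, 7 and 4 for the mean effect and the arms in the order control, 4MU, siLuc-LNP and siHAS2-LNP, then 3 for CCl4 + 4MU and 3 for CCl4 + siHAS2-LNP against CCl4. The number of all genes called in CCl4 + siHAS2-LNP against CCl4 + siLuc-LNP was 154 in the main fit, 412 with DESeq2, 12 with limma-voom, 656 with no filter and 12 with the block, and 2038 against CCl4 alone became 1322 with limma-voom. The shallowest library limits the low members, Anxa3 having 19 counts there.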
